A study of Mus musculus with 4 samples.

Results

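The α- and β-tubulin isotype genes were examined in testes of Rfx2 mutant mice. The members were the genes listed under the symbols Tuba1a, Tuba1b, Tuba1c, Tuba3a, Tuba3b, Tuba4a, Tuba8, Tubb3, Tubb5 and Tubb6, and all 10 were present in every sample, out of 22311 genes. RNA was sequenced from the total cells of testes at 24 days of age, in 2 Rfx2-/- samples (mutant 1 and mutant 2) and 2 control samples (control 1 and control 2). Per the labels the control genotype is wild type and the strain DBA, whereas the study's methods describe the controls as heterozygous animals on a mixed background of 129/s6 and C57BL/6. These descriptions were not reconciled here. In the mutants, exons encoding the DNA-binding domain of RFX2, a transcription factor of the regulatory factor X family, were replaced by a neomycin-resistance cassette in every cell of the animal, and the line came from a single embryonic stem cell clone. Rfx2 itself had 36.7 and 39.8 FPKM in the mutants against 123 and 89.4 in the controls, so both mutants lay below both controls (log2 fold change -1.43 ± 0.19 SE, limma adjusted p = 0.00617). This value covers the whole gene, including parts outside the deleted exons. Its adjusted p in limma was 0.0628 without control 1, 0.0829 with median-ratio scaling and 0.0607 without a filter on low genes. Depth was similar, with 17.2 to 20.3 M fragments a sample behind the values, as estimated from the authors' confidence intervals. The study's methods state higher numbers of sequenced reads. Between 12557 and 12942 genes had an FPKM of at least 1. Markers of Sertoli cells, spermatogonia and spermatocytes were detected in every sample, as the testis label requires. RNA of the round and elongating spermatid marker lists was detected in every sample too. These lists name genes and not cells, since the paper reports that mutant round spermatids failed to elongate.

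Tubulin is built as a dimer of an α and a β subunit, and these dimers polymerise into microtubules. In male germ cells microtubules form the meiotic spindle, the manchette that shapes the elongating spermatid head, and the axoneme of the sperm flagellum. The isotypes differ most in a short, glutamate-rich C-terminal tail, which lies on the outside of the microtubule and is the site of polyglutamylation. Many α-tubulins also end in a tyrosine that can be removed and put back.

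The last 60 coding bases before the stop codon show how several of the isotypes differ, and they are printed 5′ to 3′ from NCBIM37 (mm9) transcripts. Capitals mark the codons GAA and GAG, which encode glutamate.
Tuba3a: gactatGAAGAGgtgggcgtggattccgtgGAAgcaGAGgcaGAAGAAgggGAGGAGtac
Tuba4a: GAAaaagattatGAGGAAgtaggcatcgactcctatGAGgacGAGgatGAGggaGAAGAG
Tuba8: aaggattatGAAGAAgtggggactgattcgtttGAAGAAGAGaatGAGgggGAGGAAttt
Tubb3: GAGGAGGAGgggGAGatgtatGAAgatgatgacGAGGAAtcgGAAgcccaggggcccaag
Tubb5: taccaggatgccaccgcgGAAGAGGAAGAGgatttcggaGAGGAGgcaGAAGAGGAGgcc
Tubb2c: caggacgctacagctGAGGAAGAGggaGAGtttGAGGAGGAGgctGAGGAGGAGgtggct
Of the 20 codons, 8 encode glutamate in Tuba3a, Tuba4a, Tuba8 and Tubb3, and 9 in Tubb5. Tubb2c, which is no member but the most abundant β-tubulin in these samples, has 10. Tuba3a and Tuba3b are identical over this stretch. Both end in a tyrosine codon, while Tuba4a ends in gag and Tuba8 in ttt, a phenylalanine codon.

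Tuba1a, Tuba1b and Tuba1c lie close together on chromosome 15, at chr15:98780272-98783982, chr15:98761856-98764996 and chr15:98860322-98868536. Tuba3a (chr6:125228292-125236060), Tuba3b (chr6:145564277-145569999) and Tuba8 (chr6:121160752-121176872) are spread over chromosome 6. Tuba4a is at chr1:75211549-75215828, Tubb3 at chr8:125935324-125945915 and Tubb5 at chr17:35970871-35975251, all in NCBIM37 (mm9). The coding sequences of near copies were hard to tell apart. Identity was 98.3% between Tuba1a and Tuba1b, 98.4% between Tuba1b and Tuba1c, and 97.0% between Tuba3a and Tuba3b, where 41 of 1353 aligned bases differed.
How far a read could be placed was measured by cutting each annotated transcript into windows of 50 bases. Of these windows, 61.0% in Tuba1a, 67.0% in Tuba1b and 60.0% in Tuba1c also occurred in a transcript of another gene. The share was 32.4% for Tuba3a and 27.4% for Tuba3b, all of it with each other. For Tuba8, Tubb3, Tubb5 and Tubb6 it was at most 0.2%. Only annotated transcripts of protein-coding genes were searched. Copies in other transcripts or elsewhere in the genome were not, so a low share does not show that reads could be placed uniquely. Levels of single Tuba1 genes, and to a lesser degree of Tuba3a and Tuba3b, are therefore uncertain, since they depend on how reads that match several genes were assigned. Tuba4a shared 29.1% of its windows with Stk16, a kinase gene on the opposite strand whose end overlaps the end of Tuba4a over 633 bases, and no strand setting is given in the sources used here. Stk16 had an FPKM of 24.6 and 24.7 in the mutants and 24.7 and 24.1 in the controls.

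**Figure D1:**
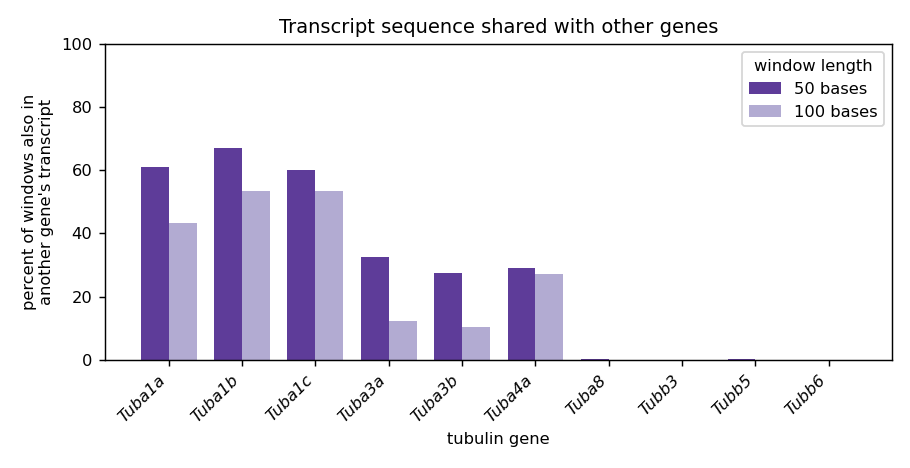
Percent of the windows of 50 and 100 bases in each member's annotated transcript that also occur in a transcript of another protein-coding gene. Bars start at 0. The Tuba1 genes stand at 60.0% to 67.0% for 50 bases, and Tuba8, Tubb3, Tubb5 and Tubb6 near 0.

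Tubulin levels are given as FPKM, fragment counts scaled to gene length and to the depth of the sample, which can be set side by side between genes. Tuba3a and Tuba3b, the α-tubulin genes known for their testis expression, were by far the highest members. Tuba3a stood at 1237 and 1282 FPKM in the mutants and 1333 and 1082 in the controls. Tuba3b stood at 1203 and 1158 in the mutants and 1448 and 1182 in the controls. Each ranked between 6 and 14 among all 22311 genes in every sample, and the genotypes overlapped in both.
The ubiquitous α-tubulins Tuba1a and Tuba1b followed at similar levels. Tuba1a had FPKM of 87.0 and 69.2 in the mutants and 60.4 and 84.6 in the controls. Tuba1b had 83.1 and 65.4 in the mutants and 64.9 and 83.2 in the controls. In both genes mutant 1 and control 2 were the high samples, and the genotypes overlapped. The level of their neighbour Tuba1c was lower, with 21.36 and 20.25 in the mutants and 23.65 and 23.68 in the controls. Tuba1c was the sole member in which both mutants lay on the same side of both controls.
Tuba8, an α-tubulin of testis and muscle, was uneven between the mutants, with 21.5 FPKM in mutant 1 and 106 in mutant 2, against 85.3 and 63.4 in the controls. Tuba4a, an α-tubulin without an encoded final tyrosine, had 8.21 in mutant 1 and 20.4 in mutant 2, against 19.6 and 16.9 in the controls. For both genes mutant 1 was the lowest and mutant 2 the highest of the samples.
Among the β-tubulins, Tubb5, the widely expressed class I isotype, had FPKM of 52.6 and 41.6 in the mutants and 38.1 and 56.3 in the controls. Tubb3, the class III isotype best known from neurons, had 30.1 and 27.0 in the mutants and 20.9 and 30.1 in the controls. Tubb6 was the lowest and most uneven β-tubulin member, with 5.01 and 25.1 in the mutants and 15.6 and 5.91 in the controls. Mutant 1 and control 2 were high for Tubb5 and low for Tubb6.
By mean over the 4 samples the order ran from Tuba3b and Tuba3a through Tuba1a, Tuba1b, Tuba8, Tubb5, Tubb3, Tuba1c and Tuba4a to Tubb6. Tuba3a and Tuba3b changed places between the mutants and the controls, and Tuba1a and Tuba1b differed by less than their spread over samples. Tuba8 overlapped every member from Tuba1a to Tuba1c, since its value in mutant 1 was low. Tubb5 lay above Tubb3 and below Tuba1b in all samples, while Tubb3 overlapped Tuba1c, and Tuba4a overlapped Tuba1c and Tubb6.
The authors' confidence intervals around these values are narrow. Their half-width was between 0.839% and 13.1% of the FPKM, and the intervals correspond to between 233 fragments (Tubb6 in mutant 1) and 56874 fragments (Tuba3b in control 1). They describe error within a sample and not the difference between animals. In mutant 1 the half-width was 3.31% for Tuba1a and 3.21% for Tubb5. The fragment numbers are computed from the half-widths, so setting widths beside them cannot show any effect of shared windows. How far the intervals cover the assignment of shared reads was not tested.

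**Figure D2:**
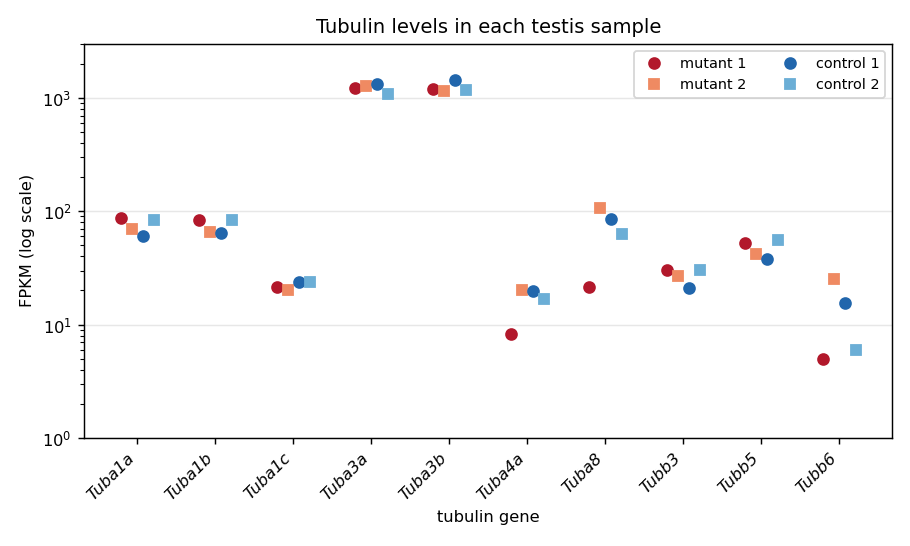
FPKM of each member in each of the 4 samples, on a log axis; circles are the samples numbered 1 and squares those numbered 2, in red for mutants and blue for controls. Tuba3a and Tuba3b lie above 1000 in every sample, and mutant 1 stands apart from the others for Tuba8 and Tuba4a.

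Whether loss of RFX2 changed the level of any tubulin isotype was tested with limma on log2(FPKM + 1) across the 12985 genes that reached 1 FPKM in 2 or more samples, with Benjamini-Hochberg adjustment over all of them. All 10 members passed this filter. None of the 10 reached an adjusted p under 0.05 (limma), and none reached an unadjusted p under 0.05. Of all genes tested, 2.83% were called, 327 of them lower and 40 higher in the mutants. An unadjusted p under 0.05 was reached by 1128 of the 12985 (limma), so none among 10 members is near that share. The fitted differences, as log2 fold changes of mutant minus control, were positive for 6 members and negative for 4, and 2 of the positive ones turned negative with median-ratio scaling (Tuba1b at -0.015 and Tubb5 at -0.007). Their median was 0.009, beside 0.032 over all genes tested.
For Tuba3a, Tuba3b, Tuba1a, Tuba1b, Tubb5 and Tubb3, whose levels were more even over the samples, the estimates lay between -0.15 and 0.18. The intervals give the range of changes the fit allows. The variance behind them comes in part from other genes. The log2 fold change of Tuba3a was 0.07 (standard error 0.26), and its 95% interval corresponds to a mutant level between 0.688 and 1.60 times the control level. For Tuba3b it was -0.15 (standard error 0.26), between 0.593 and 1.37 times. Tuba1a had 0.12 (standard error 0.21, interval 0.771 to 1.52 times) and Tuba1b 0.005 (standard error 0.20, interval 0.731 to 1.38 times). Tubb5 had 0.01 (standard error 0.22, interval 0.705 to 1.44 times) and Tubb3 0.18 (standard error 0.21, interval 0.811 to 1.58 times).
Tuba1c, whose samples did not overlap between genotypes, had a fitted log2 fold change of -0.18 ± 0.16 SE (limma adjusted p = 1.0). Its interval ran from 0.680 to 1.15 times the control level. Among all genes tested, 31.5% had genotypes that did not overlap, so 1 such member of 10 is no more than the background.
The intervals were much wider for the uneven members. Tuba8 had a log2 fold change of -0.60 (standard error 0.60), and its interval ran from 0.251 to 1.72 times the control level. For Tuba4a the change was -0.45 (standard error 0.36, interval 0.412 to 1.29 times), and for Tubb6 it was 0.23 (standard error 0.65, interval 0.410 to 3.33 times). Leaving out a sample decided their sign. Without mutant 1 the log2 fold change was 0.52 for Tuba8, 0.15 for Tuba4a and 1.28 for Tubb6, where Tubb6 passed the threshold (adjusted p = 6.7e-05 from limma). Without mutant 2 it was -1.73 for Tuba8 (adjusted p = 1.66e-12 from limma), -1.06 for Tuba4a (adjusted p = 0.00137 from limma) and -0.83 for Tubb6. In these fits the lone mutant is assumed to vary as the controls do, and they rest on 1 mutant sample. Limma also draws the variance of each gene toward that of other genes. For Tubb6 the controls differed by 1.265 on log2(FPKM + 1), yet the standard error without mutant 1 was 0.266. The adjusted p-values from limma in these fits therefore do not rest on the spread of the gene itself alone.

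**Figure D3:**
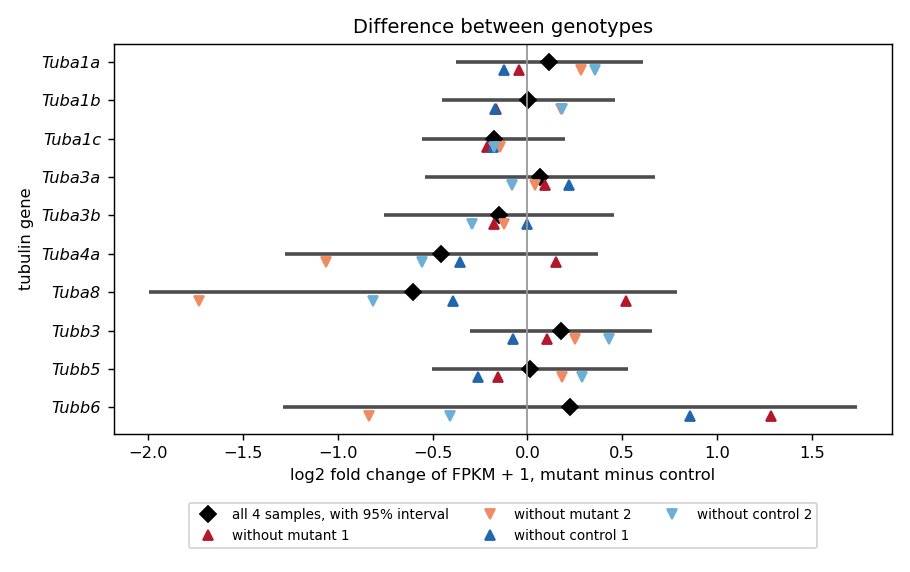
Log2 fold change of FPKM + 1, mutant minus control, for each member: diamonds are the fit of all 4 samples with its 95% interval, and triangles the same fit with 1 sample left out. Every interval includes 0, and for Tuba8, Tuba4a and Tubb6 the values without mutant 1 and without mutant 2 lie on opposite sides of 0.

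The mutants differed from each other in Tuba8, Tubb6 and Tuba4a by more than most genes did. Tuba8 was 4.93-fold higher in mutant 2 than in mutant 1, Tubb6 5.01-fold and Tuba4a 2.48-fold. On log2(FPKM + 1) the mutants differed by at least as much in 0.331% of the genes tested for Tuba8, 0.454% for Tubb6 and 3.17% for Tuba4a. The authors' intervals for these genes were far apart in the mutants, for Tuba8 from 19.96 to 23.0 FPKM in mutant 1 and from 102 to 110 in mutant 2. The other 7 members spanned less than 1.5-fold over the 4 samples.
Markers of spermatid stages moved with Tuba8 and Tuba4a. The elongating spermatid list, with protamines, transition proteins and sperm tail genes, had a summed FPKM of 1523 in mutant 1 and 7081 in mutant 2, against 8321 and 5688 in the controls. All 10 of its genes were lowest in mutant 1. The round spermatid list summed to 657 in mutant 1 and 1149 in mutant 2, against 1017 and 851 in the controls, and 8 of its 10 genes were lowest in mutant 1. No marker of either list was at 0, and none was called between genotypes (limma), with a median log2 fold change of -0.539 for the elongating and -0.13 for the round spermatid list. In whole testis RNA, fewer cells of a type and less RNA per cell cannot be told apart, and the part of spermatid number in the values of Tuba8 and Tuba4a was not tested.
Tubb6 was low in mutant 1 and also in control 2. Tuba3a, Tuba4a, Tuba8 and Tubb6 were all higher in mutant 2 than in mutant 1 and higher in control 1 than in control 2, a pattern held by 19.8% of all genes tested. The controls differed in Tubb6 by 2.64-fold, and 0.554% of the genes tested differed by at least as much between them. Tuba1a, Tuba1b, Tuba1c, Tubb3 and Tubb5 were instead higher in mutant 1 than in mutant 2 and higher in control 2 than in control 1, as were 46.9% of all genes tested. The Sertoli cell list, of the somatic cells that support the germ cells, summed to 812 in mutant 1, 701 in mutant 2, 549 in control 1 and 735 in control 2. The spermatogonium list summed to 106 and 84.8 in the mutants and 72.9 and 108 in the controls. The median-ratio scaling factors were 1.07 in mutant 1 and 0.965 in mutant 2, and 0.947 in control 1 and 1.05 in control 2. The part of these cell types and of scaling in the levels of these tubulins was not tested.
The genes whose 4 values lay closest to those of Tuba8, the member with the largest fitted change, were Spata3, Gm5382, Prss37, 1700012L04Rik and Gm14483. The measure was the Euclidean distance of log2(FPKM + 1) centred on its mean over the 4 samples, from 0.07 for Spata3 to 0.18 for Gm14483. Spata3 had FPKM of 32.4 and 153 in the mutants and 120 and 94.6 in the controls, with mutant 1 lowest and mutant 2 highest as for Tuba8.

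**Figure D4:**
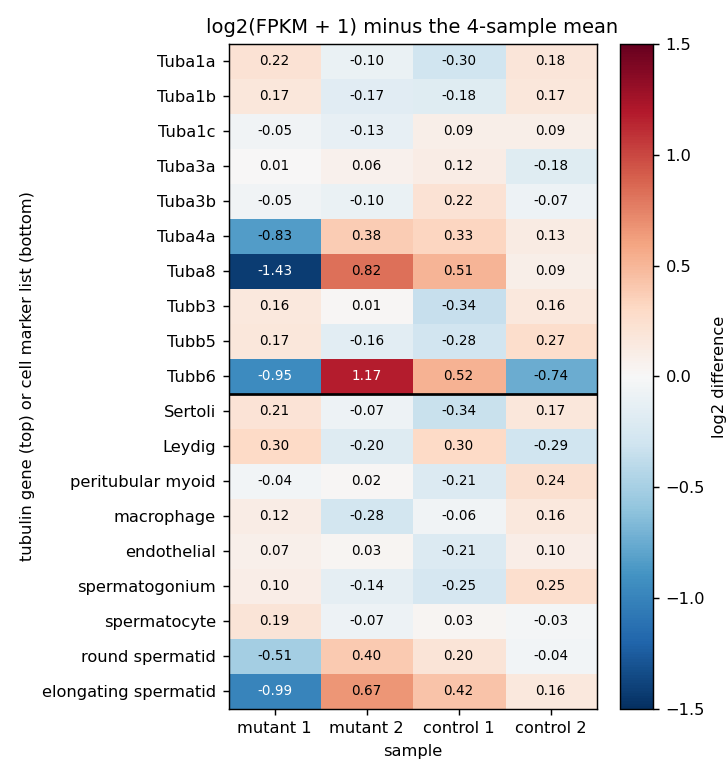
Log2(FPKM + 1) of each member in each sample minus its mean over the 4 samples (upper rows), and the median of the same over each cell marker list (lower rows); red is above and blue below the mean. Tuba8 (-1.43), Tuba4a (-0.83) and the elongating spermatid median (-0.99) are all lowest in mutant 1, while Tubb6 is low in mutant 1 (-0.95) and control 2 (-0.74).

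The composition of the tubulin pool was followed as the share of each isotype in the summed FPKM of the 8 α-tubulin or 8 β-tubulin genes listed. Tuba3a and Tuba3b together made up 91.7% and 89.7% of α-tubulin in the mutants and 91.6% and 89.3% in the controls, so the genotypes overlapped. The Tuba1 genes together took 7.20% and 5.69% in the mutants and 4.91% and 7.55% in the controls. Tuba8 took 0.808% in mutant 1 and 3.89% in mutant 2, against 2.81% and 2.50% in the controls. Tuba4a took between 0.309% and 0.749%, and Tuba1c between 0.744% and 0.934%.
The balance between the near copies was followed as a ratio. The ratio of Tuba3b to Tuba3a was 0.973 and 0.903 in the mutants and 1.09 in each control, without overlap. Their sum was 2439 and 2440 FPKM in the mutants and 2781 and 2264 in the controls. The ratio rests on the assignment of reads between these genes, and it was given no test. Of single genes tested, 31.5% also had genotypes that did not overlap.
β-tubulin was dominated by Tubb2c, the gene now called Tubb4b, an isotype of cilia and flagella. It took 90.1% in each mutant and 91.0% and 87.4% in the controls. Tubb5 took 5.33% and 3.76% in the mutants and 4.21% and 7.21% in the controls. Tubb3 took between 2.31% and 3.86%, and Tubb6 between 0.507% and 2.27%. The summed β-tubulin FPKM was 0.372 and 0.406 times the summed α-tubulin FPKM in the mutants and 0.298 and 0.308 times in the controls. Both mutants lay above both controls for this ratio, which was given no test. Genotypes did not overlap in 31.5% of single genes tested, in either direction.

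**Figure D5:**
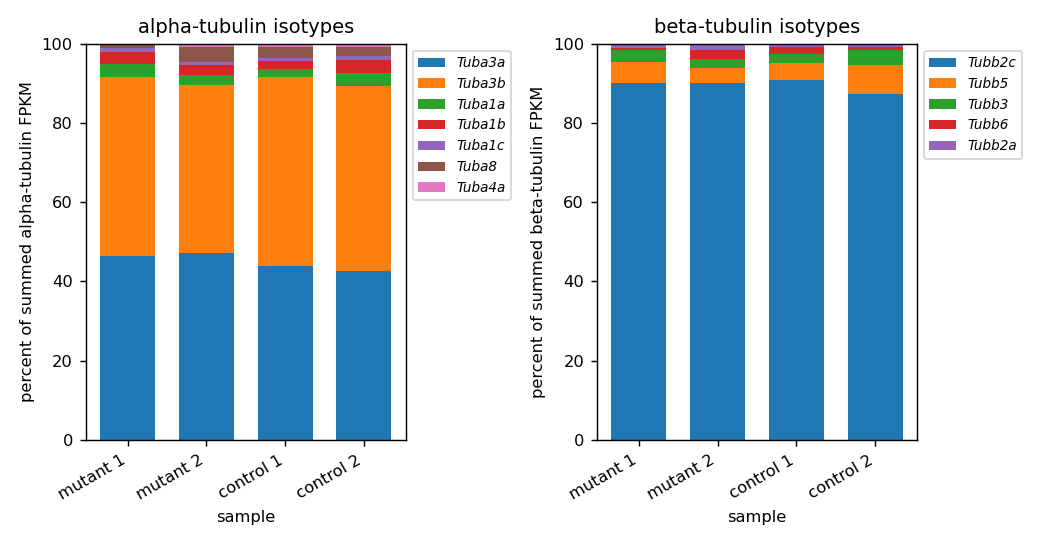
Stacked bars of each isotype's percent of the summed α-tubulin (left) and β-tubulin (right) FPKM in each sample, from 0 to 100; isotypes under 0.1% are not drawn. Tuba3a with Tuba3b and Tubb2c fill about the same part of every bar, between 87.4% and 91.7%.

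The other tubulin genes were read from the same fit, in which 2.83% of all genes tested were called. Of 13 listed, 11 were in the files and 5 passed the filter and none was called (limma, adjusted p under 0.05), with 1 at an unadjusted p under 0.05. That gene was Tubb2a, a β-tubulin, with FPKM of 9.47 and 15.5 in the mutants and 6.38 and 5.35 in the controls. Both mutants lay above both controls, and the log2 fold change was 0.94 ± 0.26 SE (limma adjusted p = 0.162). It shares 46.4% of its 50-base windows with Tubb2b. With robust eBayes its adjusted p was 0.0336 in limma, and without mutant 1 it was 0.00133.
Tubb2c had FPKM of 891 and 995 in the mutants and 824 and 683 in the controls. The log2 fold change was 0.33 ± 0.24 SE (limma adjusted p = 1.0). Both mutants lay above both controls, and the gene was not called. Tubg1, the γ-tubulin that nucleates microtubules, had FPKM between 14.6 and 16.5 over the 4 samples. The δ- and ε-tubulins of centrioles, Tubd1 and Tube1, had FPKM between 15.2 and 20.7 and between 2.46 and 3.36. The log2 fold changes of Tubg1, Tubd1 and Tube1 lay between -0.02 and 0.04.
Genes that act on tubulin were also mostly uncalled. Of 22 tested folding genes (tubulin cofactors, the CCT chaperonin and prefoldin), which make the dimer, none was called, with log2 fold changes from -0.36 to 0.37. None of 17 nucleation genes (γ-tubulin complex, augmin) was called, with changes from -0.26 to 0.31, and none of 12 genes of microtubule-binding proteins, with changes from -0.13 to 0.23. No gene of these lists reached an unadjusted p under 0.05 in limma. Of all 12985 genes tested, 2.83% were called and 1128 reached an unadjusted p under 0.05 in limma. The medians of these lists were 0.02, 0.09 and 0.07, beside 0.032 over all genes tested.
Beside 2.83% of all genes tested, 1 of 9 tested genes that sever or depolymerise microtubules was called, and it was lower in the mutants. This was Katnal1, a katanin-like severing ATPase known from Sertoli cells. Its FPKM was 4.94 and 4.38 in the mutants and 18.4 and 16.7 in the controls, with both mutants below both controls. The log2 fold change was -1.71 ± 0.20 SE (limma adjusted p = 0.0026). Without control 1 its adjusted p in limma was 0.0556. None of the 9 Sertoli cell markers was called, and their log2 fold changes ran from 0.01 to 0.285. The part of cell numbers, of Sertoli or germ cells, in the Katnal1 values was not tested.

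RFX proteins bind the X-box, a motif of paired half-sites, and the start sites of the tubulin genes were searched for it. In NCBIM37 (mm9), 1000 bases were searched on each side of the first annotated start of a gene, on both strands, with 0 to 3 bases between the half-sites and no mismatch. No member had a match. Of 22380 protein-coding genes, 3.64% had one. Among the 16 α- and β-tubulin genes the sole match was near Tubb1, named here after the search, a platelet isotype with an FPKM of at most 0.0275 here.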

How the data were processed

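Total RNA of testes from 2 Rfx2-/- and 2 control mice was sequenced on an Illumina HiSeq instrument by the authors. Reads were aligned to mm9 with TopHat2 (version 2.0.6 in the submitters' processing notes) and assembled with Cufflinks. The deposited values are FPKM per gene and sample, with a confidence interval around each, normalised by the authors for gene length and depth within a sample; strandedness and read length are not given in the sources used here. The intervals correspond to between 17.2 and 20.3 M fragments per sample, computed as the square of 2 FPKM over the distance from FPKM to upper bound and summed over genes.

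Rows sharing a symbol were summed. Mutants and controls were compared in limma 3.58.1 under R 4.3.3 (lmFit, eBayes with trend) on log2(FPKM + 1), for genes reaching 1 FPKM in 2 or more of 4 samples. Tests were two-sided, and a gene was called at a Benjamini-Hochberg adjusted p under 0.05. The pseudocount understates changes of low genes. The study calls the samples biological replicates. P-values measure the spread between these samples after eBayes draws it toward the variance of other genes of similar level. The functions were tested on simulated data. Alternatives were a pseudocount of 0.1, no filter, a filter at an FPKM of 5, a replicate block, scaling by median ratios or by quantiles, eBayes made robust or fitted with no trend, the highest row per symbol in each sample and each sample left out; a crossed replicate block was chosen after seeing the data. Named were all members, other tubulin genes past the filter, list genes called, and the 5 genes closest to the member with the largest change. The members and lists were chosen with earlier results of these data known. Sequences are from NCBIM37 (mm9) with GENCODE annotation, and some sequences are not reported here. Tables used Python 3.11.15, pandas 2.3.3 and Biopython 1.88.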

Additional observations from a re-analysis of the deposited data

How the results depend on the processing

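With all 4 samples, no member was called under any alternative. Leaving out 1 sample gave between 0 and 2 members lower (Tuba8 and Tuba4a without mutant 2) and between 0 and 1 higher (Tubb6 without mutant 1). Fitted changes near 0 turned sign with median-ratio scaling for Tuba1b (-0.015) and Tubb5 (-0.007) and with quantile normalization for Tubg1 (0.02) and Tube1 (0.043). Over the fits with 1 sample left out, log2 fold changes ran from -0.12 to 0.355 for Tuba1a, from -0.17 to 0.18 for Tuba1b, from -0.083 to 0.22 for Tuba3a, from -1.06 to 0.15 for Tuba4a, from -1.73 to 0.52 for Tuba8, from -0.076 to 0.43 for Tubb3, from -0.26 to 0.29 for Tubb5, from -0.83 to 1.28 for Tubb6, from -0.10 to 0.067 for Tubg1, from -0.17 to 0.25 for Tubd1 and from -0.185 to 0.15 for Tube1. Of 140 member values under alternatives, 123 kept their direction and side of the threshold and 14 reversed. The others came from fits with 1 mutant left out. Changes of filter, of eBayes setting or of block left the fitted change as it was. For these the direction was fixed in advance, so the 123 overstate how stable the values were.
Over all genes, the 327 lower and 40 higher became 199 and 17 with no filter, 202 and 17 with a filter at an FPKM of 5, 206 and 16 with median-ratio scaling, and 525 and 70 with the replicate block. With robust eBayes 67 were higher. Leaving out 1 sample gave 167 (without control 1) to 948 (without mutant 2) lower and 13 (without control 2) to 162 (without mutant 1) higher. Same-numbered samples deviated with a correlation of -0.154 over genes. With 2 samples per genotype this cannot tell whether the samples were paired. The replicate block, and the crossed block added after seeing the data (266 lower, 28 higher), called no member. Of the other tubulin genes, 1 was higher with robust eBayes, and between 0 and 1 with a sample left out. Left-out samples gave 0 (without control 1) to 2 (without mutant 2) severing genes lower, and 0 to 1 microtubule-binding genes lower (without mutant 2) and 0 to 1 higher (without mutant 1). With the members alone as denominator the Tubb5 share of β-tubulin was 52.2% in mutants and 56.0% in controls, since Tubb2c then drops out. Except there, the cause was not tested. Precision is limited by the 2 samples per genotype.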
